A study of Arabidopsis thaliana with 18 samples.

Results

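The comparison described here is the response to the auxin indole-3-acetic acid (IAA) in Arabidopsis root protoplasts that carry an empty vector. It was read from 6 of the 18 arrays of the study, chosen by their titles: 3 arrays of empty vector cells given IAA and 3 arrays of empty vector cells given solvent alone (mock). The other 12 arrays were of cells over-expressing IAA7mII or IAA19mII, each with IAA and with mock. They entered the filter and the pooled estimate of spread, so every p-value here rests on them too. Otherwise they were used only for a difference between responses. All cells came from roots of 7-day-old Col-0 seedlings with the reporter Pwer::GFP, a green protein under the WEREWOLF promoter, which is active in root epidermis and lateral root cap. The roots were digested to protoplasts (cells without walls) for 3 h and transformed by PEG with pMON999_mRFP (empty vector), pBeaconRFP_IAA7mII or pBeaconRFP_IAA19mII. After a night the cells received 5 µM IAA or solvent for 3 h, and cells with both the green and the red label were sorted. The plasmid of the empty vector differs from the backbone of the over-expressors, so the vector and the transgene cannot be told apart in any difference between them. The labels do not spell out mII, and they do not say whether the replicates were separate cultures. The p-values therefore measure the spread between these arrays, which may be technical, and the number of arrays limits the precision.

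Auxin acts by joining a TIR1/AFB receptor to an Aux/IAA repressor, after which the repressor is ubiquitinated and degraded and auxin response factors are freed to activate genes. Among the earliest targets are genes that feed back on the signal, such as those for Aux/IAA proteins themselves and for GH3 enzymes, which join auxin to amino acids. In the root auxin also sets off lateral root formation, in which LBD transcription factors act.

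The 6 arrays were close in scale and in spread, though every IAA array had a higher median signal than every mock array. Their median signals were 48.6 to 52 with IAA and 43.0 to 48.0 with mock. Pearson correlations of log2 signals across probesets, which share one array design and are not independent, were 0.958 to 0.973 within a treatment and 0.945 to 0.968 between treatments. The median SD of a probeset on the log2 scale was 0.29 with IAA and 0.26 with mock. The identity of the cells could hardly be checked, since no probeset matched a listed marker of non-hair epidermis, lateral root cap, endodermis or stele under the naming used here. Of the root hair markers only the expansin EXPA7 was tested, and its signal was 19.1 to 217.7 with IAA and 51.1 to 54.7 with mock. Signals are MAS5 intensities in arbitrary units, and the signal of one probeset was not set against that of another as an amount of RNA.

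IAA changed 124 of the 16892 tested probesets, 0.734% of them, at a limma adjusted p under 0.05. Of these 56 were higher (0.332% of those tested) and 68 lower (0.403%). An unadjusted p under 0.05 was reached by 403 probesets on the higher side and 468 on the lower, together 5.16% of those tested. The 3 arrays of each treatment did not overlap in 8.81% of tested probesets on the higher side and 6.48% on the lower. The median log2 change over all tested probesets was 0.03. A single gene could be named for 57 of the 124, 26 higher and 31 lower, and those 57 genes are described below. The rises were large and the falls moderate. The median log2 change was 2.29 among the 26 raised genes, 16 of which rose over 4-fold, and -1.19 among the 31 lowered genes, 3 of which fell over 4-fold. Folds were taken after adding 16 to each signal, which understates the change where signals are low. In sorted populations a change in the number of cells of a type and a change in RNA per cell cannot be told apart.

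**Figure D1:**
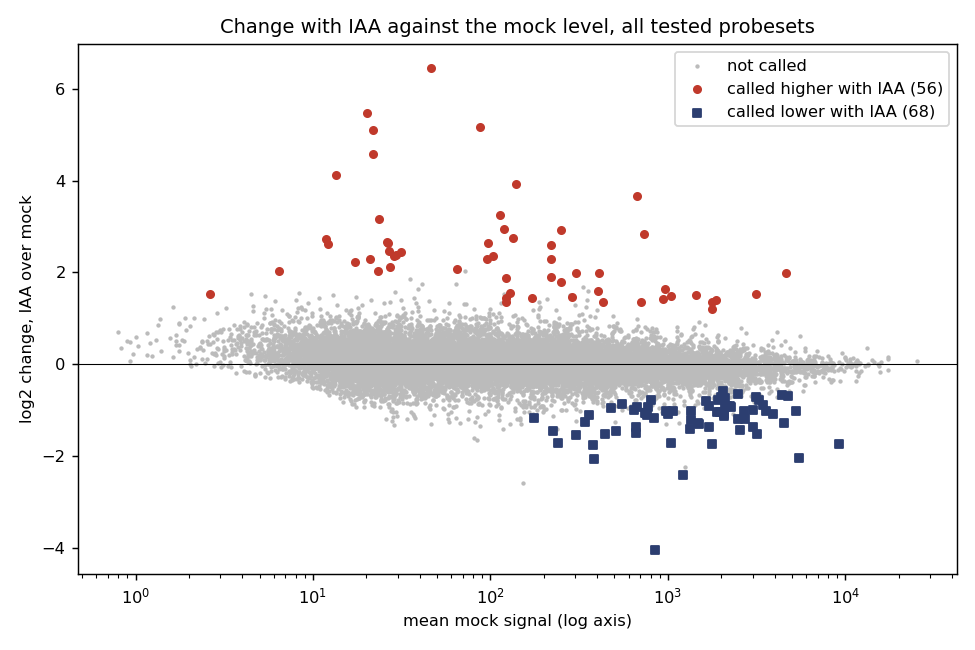
Log2 change with IAA (vertical axis) against the mean mock signal on a log axis (horizontal), 1 point for each of 16892 tested probesets. The 56 probesets called higher lie at low as well as high mock signals, while the 68 called lower all lie at mock signals of 174.9 or more.

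Raised and lowered genes differed in the mock signal at which they were called. The mean mock signal ran between 6.43 and 3120 for the raised genes (median 126.5), and 11 of the 26 were under 100. For the lowered genes it ran between 174.9 and 9177 (median 1219), and 0 of the 31 were under 100. The median over all tested probesets was 116. Standard errors were larger at low signals: the median was 0.43 over the 7978 probesets with a mock mean under 100 and 0.29 over the 8914 others. A fall of a gene with a low mock signal is also compressed by the added 16.

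Among probesets with a single gene name, the 4 steepest rises were of 2 Aux/IAA genes, a GH3 gene and an HD-ZIP II gene. GH3.3, whose enzyme conjugates auxin to amino acids, had signals of 5928, 5184 and 4842 with IAA, against 34.2, 38.4 and 66.0 with mock. It rose 87.5-fold (log2 change 6.45 ± 0.44 SE, limma adjusted p = 3.95e-10). The Aux/IAA gene IAA30, whose protein lacks the degradation motif of most of its family, gave 4203, 3772 and 2997 with IAA and 75, 113.1 and 72.9 with mock (5.16 ± 0.35, limma adjusted p = 3.95e-10). For both genes every IAA array lay far above every mock array, and the 3 IAA arrays lay close together. IAA29, another Aux/IAA gene, had 1164, 1109 and 911 with IAA, against 8.1, 1.5 and 56 with mock (5.10 ± 0.48, limma adjusted p = 1.28e-07). HAT2, a homeobox gene of the HD-ZIP II family that auxin is known to induce, had 1134, 807 and 622 with IAA, against 14.4, 8.6 and 42.0 with mock (4.59 ± 0.48, limma adjusted p = 1.19e-06). The mock signals of IAA29 and HAT2 were near the bottom of the scale and uneven, so that their fold changes, 34.4 and 24.1, depend on the added 16. These 4 genes were called under every one of the 18 other settings tried.

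**Figure D2:**
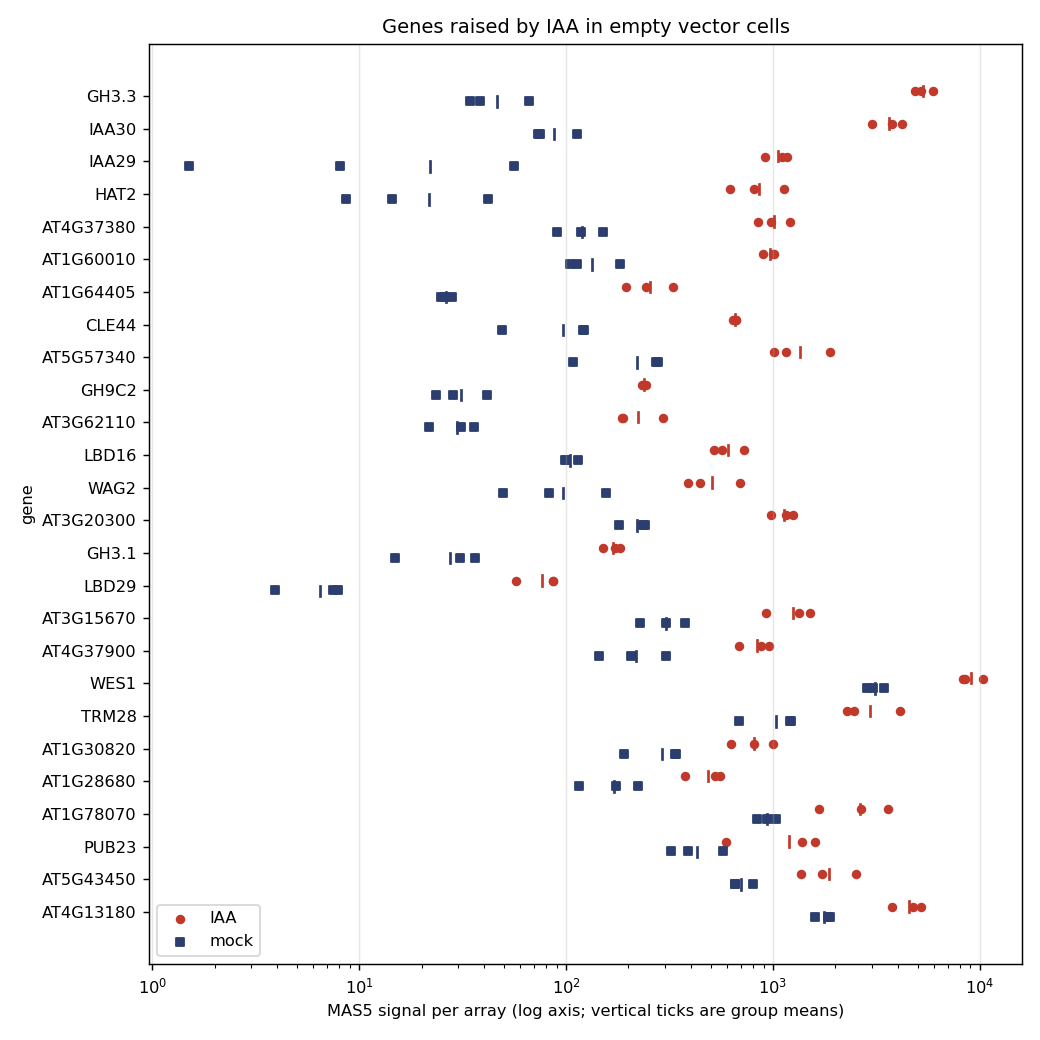
MAS5 signal on a log axis for the 26 raised genes (rows, ordered by log2 change): 1 circle per IAA array, 1 square per mock array, vertical ticks at group means, n = 3 each. In all 26 genes the IAA circles lie to the right of the mock squares, with the narrowest gap in PUB23 (593 with IAA against 576 with mock).

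The GH3 list did not move one way. Of 11 listed genes 5 had a named probeset and 4 were tested; 3 were higher and 1 lower, with a median log2 change of 1.83, where 0.332% of all tested probesets were called higher and 0.403% lower. WES1, also known as GH3.5, had the smallest error of the raised genes: its signals were 10329, 8292 and 8494 with IAA and 3456, 3048 and 2855 with mock (2.88-fold, 1.53 ± 0.17, limma adjusted p = 3.28e-06). GH3.1 gave 150.9, 182.5 and 172.9 with IAA, against 14.9, 30.8 and 36.2 with mock (4.36-fold, limma adjusted p = 0.0218). GH3.17, which conjugates auxin to glutamate, went the other way. Its signals were 1274, 1114 and 1066 with IAA, against 3058, 2122 and 1574 with mock (1.88-fold lower, -0.91 ± 0.21, limma adjusted p = 0.0269). The mock arrays of GH3.17 were uneven, and its call was lost on leaving out IAA replicate 2 or 3 or mock replicate 1 or 2, with adjusted p up to 0.310. GH3.1 lost its call without any 1 of the arrays except mock replicate 3, with adjusted p up to 0.167.

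Other members of the Aux/IAA list did not pass the test. Of 29 listed genes 7 had a named probeset and 4 were tested. Of these 2 were higher and 0 lower, where 0.332% of all tested probesets were called higher and 0.403% lower. IAA29, 1 of the 2, averaged 1.77 to 22.8 in the groups of over-expressors. It may thus have passed the filter mainly through its empty vector arrays with IAA, so the count of raised Aux/IAA genes is no separate evidence. IAA18 had a mean of 472 with IAA and 380 with mock (log2 change 0.29 ± 0.26), and IAA34 had 103 with IAA and 109 with mock (-0.07 ± 0.34). The 3 members that did not reach the filter were IAA20, at a mean of 33.8 with IAA and 13.1 with mock, IAA31 at 8.43 with IAA and 3.07 with mock, and IAA33 at 9.07 with IAA and 1.83 with mock. Of the genes for auxin synthesis and inactivation 3 were tested and none was called, at unadjusted p of 0.462 to 0.999. Among them YUC2, for an enzyme of auxin synthesis, had a mean of 14.8 with IAA and 21.5 with mock (-0.29 ± 0.38). UGT74D1, for a glucosyltransferase that acts on auxin, had 31.7 with IAA and 24.4 with mock (0.26 ± 0.44). No named probeset matched the lists of SAUR genes, auxin response factors and auxin receptors, which were not analysed here.

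Of 40 listed LBD genes 2 had a named probeset. Both were tested and were higher, where 0.332% of all tested probesets were called higher. LBD16, which acts at the first division of lateral root founder cells, had signals of 521, 727 and 568 with IAA, against 113.5, 99.7 and 98.8 with mock (5.14-fold, 2.36 ± 0.41, limma adjusted p = 0.00198). LBD29 had 86.7, 86.8 and 57.0 with IAA and 7.9, 7.5 and 3.9 with mock (2.04 ± 0.35, limma adjusted p = 0.00161). In empty vector cells it was near the bottom of the scale with mock only. In the over-expressors LBD29 averaged 6.13 with IAA and 4.47 with mock in IAA7mII cells, and 6.93 with IAA and 3.57 with mock in IAA19mII cells. It may thus have passed the filter through its empty vector IAA arrays alone. The counts of raised LBD and lateral root genes are therefore no separate evidence. CLE44, for a signalling peptide of the CLAVATA3/ESR-related family, had 665.3, 639.5 and 662.1 with IAA, against 121.7, 48.9 and 120.5 with mock (6.28-fold, limma adjusted p = 0.00199). Of 24 genes on the auxin transport list 2 had a named probeset and only 1 was tested. This was WAG2, a protein kinase that acts on the polarity of PIN auxin carriers. WAG2 had 445, 388 and 691 with IAA, against 82.5, 49.4 and 156.5 with mock (4.91-fold, limma adjusted p = 0.00757). The treatments did not overlap in any of these 4 genes (8.81% of all tested probesets lay higher without overlap). All 4 were called on the same arrays, which favours this. WAG2 lost its call without IAA replicate 3 or mock replicate 2 (adjusted p up to 0.101). Of 19 genes on the lateral root and meristem list 6 had a named probeset and 4 were tested. Of these 3 were higher, namely CLE44 and again LBD16 and LBD29. The other, BBM, had a mean of 16.8 with IAA and 6.23 with mock (0.62 ± 0.46).

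Among the tested genes of the wall lists 1 was called. These lists do not hold every wall gene. Genes outside them that are named only by locus, such as the raised AT3G62110, were not sorted by role. GH9C2, of the glycosyl hydrolase 9 family of endoglucanases, had 234.0, 232.7 and 243.4 with IAA, against 23.6, 28.5 and 41.4 with mock (5.42-fold, 2.44 ± 0.42, limma adjusted p = 0.00161). Its relative GH9C1 averaged 385 with IAA and 71.6 with mock with widely spread arrays and was not called (2.04 ± 0.59, limma adjusted p = 0.160). None of 14 tested expansins was called (median log2 change 0.06; 1 at an unadjusted p under 0.05). EXPA16 had 33.1, 29.8 and 37.1 with IAA, against 6.1, 5.5 and 2.1 with mock (1.27 ± 0.38, limma adjusted p = 0.196), and EXPA4 averaged 180.1 with IAA and 92.5 with mock (0.85 ± 0.47). None of 5 tested xyloglucan endotransglucosylases was called, although XTH19 did not overlap between treatments, with 379 to 578 with IAA and 216 to 291 with mock (1.00 ± 0.28, limma adjusted p = 0.126). XTH26 averaged 33.6 with IAA and 16.1 with mock (0.73 ± 0.44). On the list of cellulose synthase and related genes the 5 tested were all cellulose synthase-like (CSL) genes, and none was called. CSLC04 averaged 86.3 with IAA and 43.8 with mock, and CSLA03 28.7 with IAA and 19.9 with mock. No cellulose synthase (CESA) gene of that list had a named probeset.

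Several of the larger rises were in genes that the table names only by locus. AT4G37380 had 979.9, 1215 and 851 with IAA, against 90.2, 118.5 and 150.0 with mock (7.65-fold, 2.94 ± 0.47, limma adjusted p = 0.00065). AT1G60010 had 1015, 892 and 1001 with IAA, against 104.7, 113.3 and 182.3 with mock (6.75-fold, limma adjusted p = 0.00758). In both, every IAA array lay above every mock array, but AT1G60010 lost its call without mock replicate 1 or 2 (adjusted p up to 0.0552). AT1G64405 had 194.5, 329.4 and 243.2 with IAA, against 24.8, 28.0 and 26.0 with mock (6.3-fold, limma adjusted p = 0.00032). AT5G57340 had 1891, 1016 and 1156 with IAA, against 272.8, 107.6 and 279.1 with mock (6.03-fold, limma adjusted p = 0.00119). AT3G62110 had 294.2, 185.3 and 188.2 with IAA, against 21.8, 35.8 and 30.9 with mock (5.18-fold, limma adjusted p = 0.00161). These genes showed no overlap between treatments, which held for 26 of the 26 raised genes, where 8.81% of all tested probesets lay higher without overlap. The raised genes were called on these same arrays, which favours a lack of overlap, so it is no separate evidence.

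The remaining raised genes rose 2.54-fold to 4.88-fold. TRM28, of a family with a TON1 recruiting motif, averaged 2949 ± 998 with IAA and 1038 ± 305 with mock (SD, n = 3; 2.81-fold). PUB23, a U-box ubiquitin ligase, had 593, 1599 and 1374 with IAA, against 320.8, 575.9 and 389.7 with mock (2.57-fold, limma adjusted p = 0.0243). IAA replicate 1 of PUB23 was scarcely above the highest mock array, and the call was lost without IAA replicate 2 or 3 or mock replicate 1 or 3 (adjusted p up to 0.321). AT4G13180 had 5186, 4728 and 3744 with IAA, against 1882, 1835 and 1592 with mock (2.54-fold, 1.35 ± 0.24, limma adjusted p = 0.00293). The others were AT3G20300 (4.88-fold), AT3G15670 (3.98-fold), AT4G37900 (3.76-fold), AT1G30820 (2.74-fold), AT1G28680 (2.72-fold), AT1G78070 (2.67-fold) and AT5G43450 (2.56-fold). In all, 18 of the 26 raised genes kept their call whichever 1 of the 6 arrays was left out. The calls also lost on leaving out 1 array were those of TRM28 (adjusted p up to 0.101), AT1G28680 (0.125), AT1G78070 (0.132) and AT5G43450 (0.0604).

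Genes known to be induced by low oxygen were among those that fell. The list holds genes that respond to hypoxia in plants and was drawn up with earlier results of these data known, so its direction is not independent evidence. Of 40 listed genes 20 had a named probeset and 19 were tested. Of these 7 were lower and 0 higher, where 0.403% of all tested probesets were called lower; 18 of 19 had a log2 change below 0, and the median was -1.04, against 0.03 over all tested probesets. AT4G10270 had 3.1, 25.5 and 113.7 with IAA, against 873, 388 and 1273 with mock (16.5-fold lower, -4.05 ± 0.69, limma adjusted p = 0.00152). AT3G10040, for which the gene table gives the synonym HYPOXIA RESPONSE ATTENUATOR1, had 143.4, 161.0 and 345.8 with IAA, against 873, 902 and 1882 with mock (5.33-fold lower, limma adjusted p = 0.00281). In both genes replicate 3 was the highest array with IAA and also with mock, and the treatments did not overlap.

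**Figure D3:**
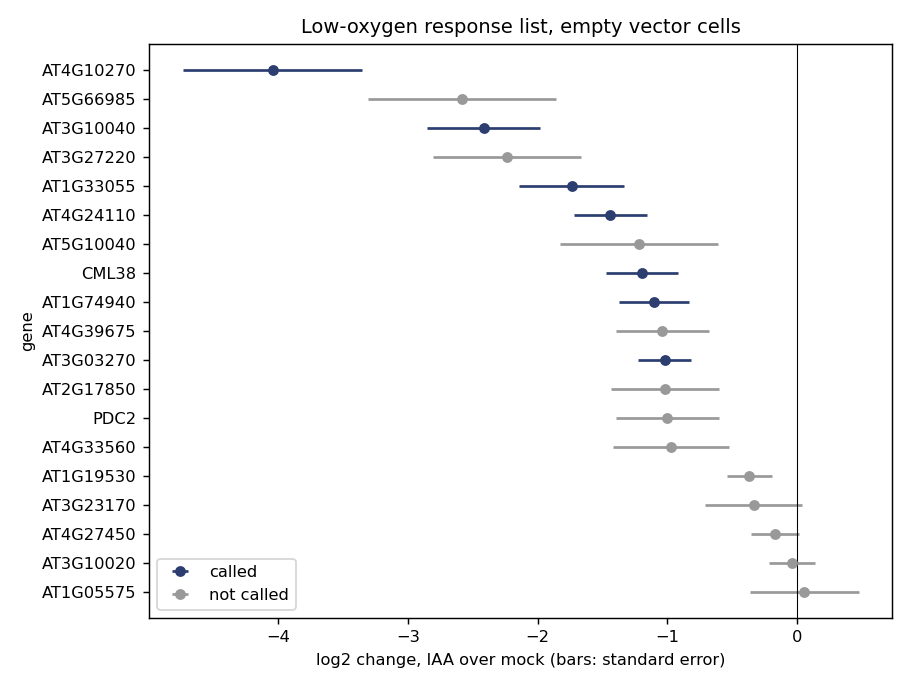
Log2 change with IAA in empty vector cells (horizontal axis, bars are standard errors) for the 19 tested genes of the low-oxygen list (rows). The 7 called genes run between -4.05 and -1.02, and 18 of the 19 points lie left of 0.

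AT4G24110 of this list had 716, 841 and 1055 with IAA, against 2175, 1525 and 3932 with mock (2.71-fold lower, limma adjusted p = 0.00637). AT1G33055 had 2528, 1472 and 5459 with IAA, against 7973, 9629 and 9929 with mock (3.33-fold lower, limma adjusted p = 0.0344), and its IAA arrays were widely spread. CML38, a calmodulin-like protein, had 516, 1633 and 1463 with IAA, against 2533.2, 2849.7 and 2109.9 with mock (2.29-fold lower, limma adjusted p = 0.0358). IAA replicate 1 was the lowest array of CML38 and its log2 change was -0.68 without it (adjusted p = 0.346). AT3G03270 (2.02-fold lower) and AT1G74940 (2.15-fold lower, limma adjusted p = 0.0464) were the other members called. The summed signal of the 19 genes was 31413 to 38120.2 with IAA and 51816 to 60561 with mock, without overlap. The count of 7 rested on every array: it was 3, 5 and 6 without IAA replicate 1, 2 and 3, and 3, 4 and 2 without mock replicate 1, 2 and 3. AT4G10270 and AT3G10040 kept their calls throughout (adjusted p up to 0.0223 and 0.0424), whereas AT1G33055 lost its call without any 1 of the arrays except IAA replicate 3 (adjusted p up to 0.411) and AT1G74940 without any 1 array (adjusted p up to 0.319). AT4G24110 lost its call without IAA replicate 1 or mock replicate 3 (adjusted p up to 0.106), AT3G03270 without mock replicate 1 or 3 (0.0660), and CML38 without mock replicate 1, 2 or 3 as well.

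Members of the list that were not called differed among themselves. AT5G66985 averaged 12.7 with IAA and 153 with mock, at a large standard error (-2.59 ± 0.73, limma adjusted p = 0.131), and AT3G27220 averaged 258 with IAA and 1255.5 with mock (-2.24 ± 0.57, limma adjusted p = 0.0697). PDC2, for pyruvate decarboxylase, which opens the route to ethanol, averaged 262 with IAA and 551 with mock (-1.0 ± 0.40, limma adjusted p = 0.672). The treatments did not overlap in these 3 genes, as in 6.48% of all tested probesets on the lower side. In contrast AT3G10020 averaged 11177 with IAA and 11439 with mock (-0.04 ± 0.18), and AT4G27450 5686 with IAA and 6585 with mock (-0.17 ± 0.18), with overlapping arrays. Oxygen was not measured, and its part in these values was not tested.

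**Figure D4:**
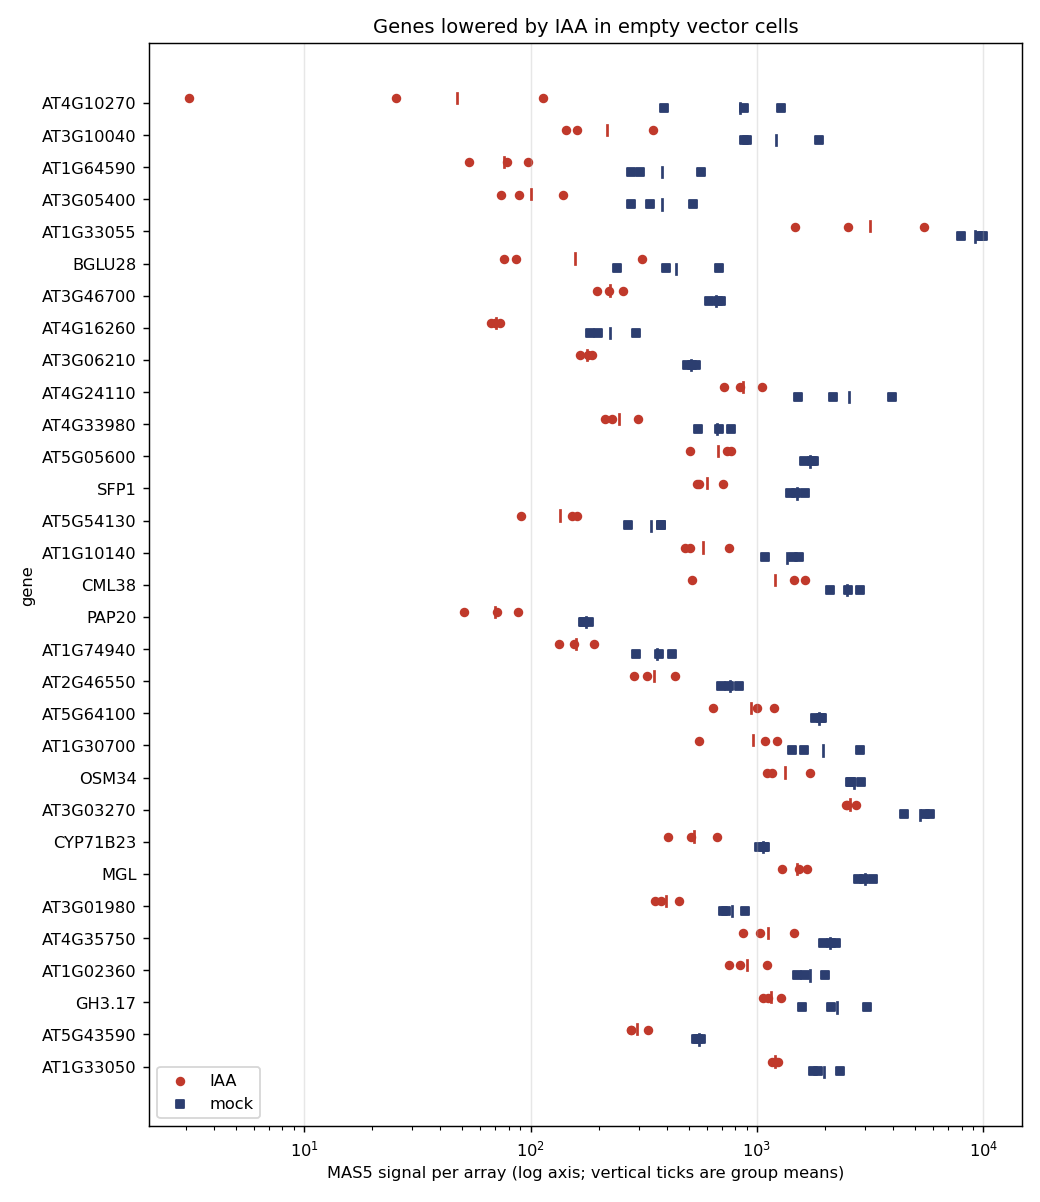
MAS5 signal on a log axis for the 31 lowered genes (rows, ordered by log2 change): 1 circle per IAA array, 1 square per mock array, vertical ticks at group means, n = 3 each. In 30 of the 31 genes all IAA circles lie to the left of the mock squares; BGLU28, with 310 in IAA replicate 3 and 241 in mock replicate 1, is the exception.

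Of 13 listed pathogenesis-related and chitinase genes 6 were tested; 3 were lower and 0 higher, where 0.403% of all tested probesets were called lower. The median log2 change of the 6 was -0.64, and the 3 others had log2 changes of -0.36 to -0.02. OSM34, an osmotin of the thaumatin-like protein family, had 1721.2, 1108.5 and 1169.9 with IAA, against 2573, 2593 and 2891 with mock (2.04-fold lower, -1.03 ± 0.16, limma adjusted p = 0.00065). AT4G16260 had 73.6, 69.6 and 66.9 with IAA, against 198.0, 183.9 and 293.6 with mock (2.75-fold lower, limma adjusted p = 0.00769). AT1G02360 averaged 901 ± 185 with IAA and 1708 ± 253 with mock (SD, n = 3; 1.89-fold lower, limma adjusted p = 0.00926). OSM34 kept its call whichever 1 array was left out, AT4G16260 lost it without mock replicate 3 (adjusted p = 0.0935), and AT1G02360 without IAA replicate 1 or 2 or mock replicate 2 (adjusted p up to 0.116). The chitinase CHI averaged 399 with IAA and 437 with mock, AT2G43590 271 with IAA and 264 with mock, and the glutaredoxin GRX480 1348.5 with IAA and 1769 with mock, none of them called.

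Among probesets with a single gene name, the 3 falls with the lowest adjusted p were of genes outside both lists. SFP1, of a family of sugar transporters, had 552, 545 and 709 with IAA, against 1631.5, 1397.4 and 1486.0 with mock (2.47-fold lower, -1.31 ± 0.16, limma adjusted p = 1.29e-05). AT3G46700 had 256, 197 and 221 with IAA, against 611, 671 and 695 with mock (2.81-fold lower, -1.49 ± 0.19, limma adjusted p = 2.65e-05). AT1G64590 had 53.6, 97.3 and 78.4 with IAA, against 303, 276 and 564 with mock (4.17-fold lower, limma adjusted p = 3.21e-05). Groups of these 3 genes lay well apart, and their calls held whichever 1 array was left out. AT3G05400 had 89.1, 74.0 and 139.4 with IAA, against 278, 337 and 521 with mock (3.36-fold lower, limma adjusted p = 0.000192). AT5G05600 had 736, 508 and 764 with IAA, against 1779.8, 1743.4 and 1617.4 with mock (2.56-fold lower, limma adjusted p = 0.000188). AT3G06210 had 186.6, 164.7 and 179.8 with IAA, against 515, 536 and 489 with mock (2.74-fold lower, limma adjusted p = 0.00637). Their calls, too, held on leaving out any 1 array.

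AT4G33980 had 214, 229 and 299 with IAA, against 548, 766 and 678 with mock (2.59-fold lower, limma adjusted p = 0.0369). BGLU28, a beta-glucosidase, had 76.6, 86.6 and 309.8 with IAA, against 241, 395 and 681 with mock (2.88-fold lower, limma adjusted p = 0.0218), and was the 1 lowered gene whose treatments overlapped. For comparison, 6.48% of all tested probesets lay lower without overlap. The lowered genes were called on these same arrays, which favours a lack of overlap. MGL, methionine gamma-lyase, which breaks down methionine, averaged 1496 ± 187 with IAA and 3000.4 ± 229.7 with mock (SD, n = 3; 2.0-fold lower, limma adjusted p = 0.00504). PAP20, a purple acid phosphatase, averaged 69.97 ± 18.5 with IAA and 174.9 ± 5.5 with mock, and the cytochrome P450 gene CYP71B23 526.8 ± 129.7 with IAA and 1062 ± 36.2 with mock. The other lowered genes fell 1.63-fold to 2.4-fold: AT5G54130 (2.4-fold), AT1G10140 (2.32-fold), AT2G46550 (2.14-fold), AT5G64100 (2.05-fold), AT1G30700 (2.05-fold), AT3G01980 (1.92-fold), AT4G35750 (1.9-fold), AT5G43590 (1.83-fold) and AT1G33050 (1.63-fold). Of the 31 lowered genes 10 kept their call whichever 1 array was left out, and AT4G33980 and AT1G33050 lost it without any 1 array (adjusted p up to 0.251 and 0.378). For BGLU28, PAP20, CYP71B23 and the other genes of this paragraph except MGL, the highest adjusted p on leaving out 1 array lay between 0.0515 for AT3G01980 and 0.443 for AT1G30700. Over all 57 genes, leaving out IAA replicate 1, 2 or 3 lost 15, 18 or 10 calls, and leaving out mock replicate 1, 2 or 3 lost 16, 19 or 12.

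Other lists had no called member. Among 6 tested WRKY factors, regulators of defence and stress genes, 5 had an unadjusted p under 0.05, as did 5.16% of all tested probesets. The median log2 change was 0.71, with 5 genes above 0 and 1 below. The 1 below 0, WRKY6, was among those with an unadjusted p under 0.05 (-0.44 ± 0.17). It averaged 1812 with IAA and 2456 with mock. WRKY53 had 268.2, 268.8 and 112.6 with IAA, against 60.8, 88.0 and 70.2 with mock (1.31 ± 0.44, limma adjusted p = 0.377), and WRKY47 162.6, 220.1 and 331.3 with IAA, against 114.0, 133.1 and 74.8 with mock (1.02 ± 0.33, limma adjusted p = 0.295). Neither gene overlapped between treatments, where 8.81% of all tested probesets lay higher without overlap. Of 9 tested ATG8 autophagy genes none was called (median log2 change -0.10): ATG8E averaged 1942 with IAA and 2329 with mock, and ATG8B 979 with IAA and 1163 with mock. Of 7 tested members of the peroxidase list, 1 of them the peroxiredoxin PRXIIF, none was called. The list does not hold every gene of the family. Genes outside it that are named only by locus, such as AT5G64100 (2.05-fold lower), were not sorted by family. The count does not cover them. AT5G64120 averaged 638 with IAA and 1006 with mock (-0.73 ± 0.25), and PRX52 121.7 with IAA and 65.9 with mock (0.50 ± 0.46). EIN3, a transcription factor of the ethylene pathway, averaged 2886 with IAA and 3097 with mock (-0.10 ± 0.15). RR16, a cytokinin response regulator, averaged 8.07 with IAA and 5.90 with mock. The only match to the heat shock list was BRK1, through a synonym, at 149.6 with IAA and 164.5 with mock.

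At the edge of the threshold lay AT1G74940 and AT1G33050 (limma adjusted p = 0.0427 for the last), just inside, and AT5G09300 and AT4G13190, just outside. AT5G09300 had 549.7, 356.3 and 523.5 with IAA, against 202.4, 145.6 and 225.3 with mock (1.25 ± 0.31, limma adjusted p = 0.0518). AT4G13190 had 73.6, 41.0 and 54.1 with IAA, against 10.6, 7.7 and 6.6 with mock (1.55 ± 0.38, limma adjusted p = 0.0518). In neither did the treatments overlap. A further 67 called probesets, 30 higher and 37 lower, carry none or several gene names in the table used. The 2 with the largest rise among them were 253791_at, at 1875, 1520.1 and 1158 with IAA and 3.3, 30.8 and 26.5 with mock, and 266346_at, at 518, 473 and 492 with IAA and 10.0, 18.8 and 11.6 with mock. The 2 with the largest fall were 258487_at, at 997, 846 and 2573 with IAA and 6629.9, 4765.6 and 5008.6 with mock, and 263096_at, at 445.7, 436.5 and 658.7 with IAA and 1378, 1585 and 2371 with mock.

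Called genes were sometimes neighbours in the gene order of the TAIR10.1 table; the window of 3 places was chosen after the values were seen. Of the 57 genes 8 had another called gene within 3 places (14%), against 132 of 9100 tested genes with a place in the order (1.45%). These form 4 pairs, and in each both genes moved the same way. IAA30 and AT3G62110 were adjacent, with log2 changes of 5.16 and 2.37, and AT1G33050 and AT1G33055 were adjacent, with -0.70 and -1.74. GH9C2 and AT1G64405 had 1 gene between them, LACS3, which was not tested. AT4G13180 and CLE44 had AT4G13190 between them, the gene just outside the threshold (1.55). The tested genes flanking the pairs were not called, with log2 changes between -0.06 (AT4G13210) and 1.25 (AT1G64430, limma adjusted p = 0.331). Genomic positions are not given, since no label or header names the genome build of the array design.

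The response in empty vector cells was set against the mean of the responses in IAA7mII and IAA19mII cells, in the same fit. The difference was called for 24 of 16892 probesets (0.142%), 11 higher and 13 lower, while 759 had an unadjusted p under 0.05. Of the 24, 12 match a single gene, and all 12 are among the 57 genes above; the difference and the response share the empty vector arrays, so this overlap is no separate result. IAA29 had the largest difference, 4.54 ± 0.59 (limma adjusted p = 0.00013). Its mean signal was 1061.5 with IAA and 21.9 with mock in empty vector cells, 12.9 with IAA and 1.77 with mock in IAA7mII cells, and 22.8 with IAA and 9.53 with mock in IAA19mII cells. The over-expressor signals of IAA29 are near the bottom of the scale, so the size of its difference depends on the constant added to each signal. With 1 as that constant the difference was called for 11 probesets, 3 of them higher. IAA30 differed by 2.78 ± 0.43 (limma adjusted p = 0.00152), and averaged 199.7 with IAA and 23.9 with mock in IAA7mII cells and 177 with IAA and 27.0 with mock in IAA19mII cells. AT4G37380 (2.97 ± 0.57), AT1G64405 (2.87 ± 0.49) and AT3G62110 (2.48 ± 0.50) also differed. In the over-expressors AT4G37380 averaged 58.2 with IAA and 64.6 with mock in IAA7mII cells, and 70.8 with IAA and 79.8 with mock in IAA19mII cells. AT1G64405 averaged 3.4 with IAA and 8.3 with mock in IAA7mII cells, near the bottom of the scale, and 30.3 with IAA and 30.4 with mock in IAA19mII cells. AT3G62110 averaged 17.8 with IAA and 19.97 with mock in IAA7mII cells, and 17.6 with IAA and 17.4 with mock in IAA19mII cells.

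**Figure D5:**
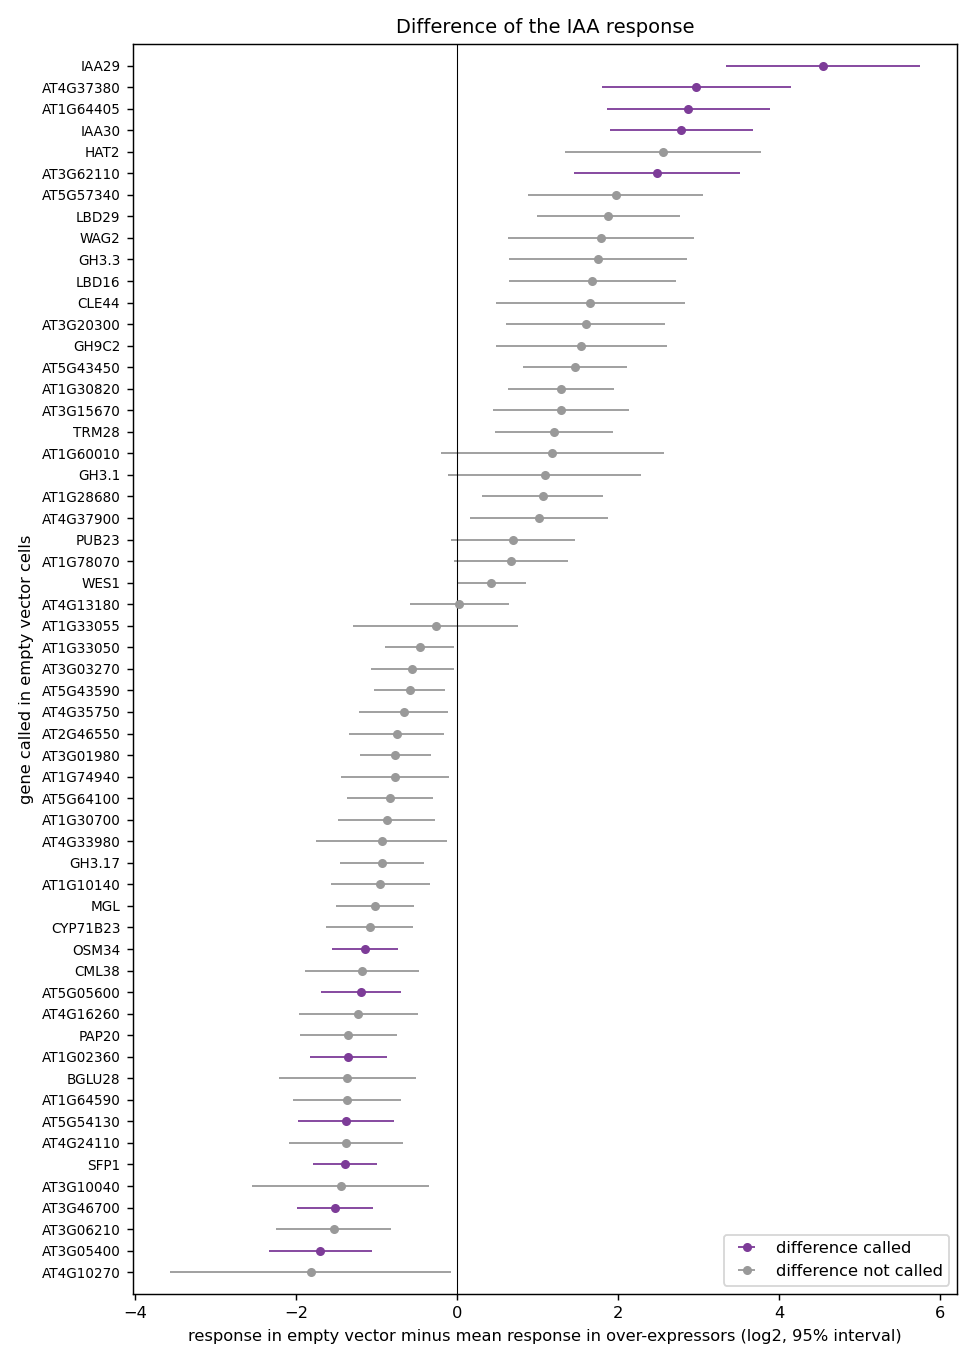
Response to IAA in empty vector cells minus the mean response in the 2 over-expressors (log2, horizontal axis, bars are 95% intervals) for the 57 genes called in empty vector cells (rows). The 12 genes whose difference was called are coloured, between 4.54 for IAA29 and -1.70 for AT3G05400. The unadjusted intervals of 7 genes include 0: AT1G60010, GH3.1, WES1, AT1G78070, PUB23, AT4G13180 and AT1G33055. All 57 genes were chosen on the same empty vector arrays, which tends to move the intervals away from 0. An interval that leaves out 0 is thus no separate result.

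Among the lowered genes the difference was called for 7: AT3G05400 (-1.70 ± 0.31), AT3G46700 (-1.52 ± 0.23), SFP1 (-1.39 ± 0.19), AT5G54130 (-1.38 ± 0.29), AT1G02360 (-1.35 ± 0.23), AT5G05600 (-1.19 ± 0.24) and OSM34 (-1.14 ± 0.20). In the over-expressors these genes had other mock signals as well. SFP1 averaged 602 with IAA and 1505 with mock in empty vector cells, 4406 with IAA and 4146 with mock in IAA7mII cells, and 3660.2 with IAA and 3461 with mock in IAA19mII cells. OSM34 averaged 1333 with IAA and 2686 with mock in empty vector cells, 4698 with IAA and 4377 with mock in IAA7mII cells, and 9666 with IAA and 8763 with mock in IAA19mII cells. For most of the 57 genes the difference missed the threshold, which does not show that the responses were alike. The difference was 1.75 ± 0.54 for GH3.3 (limma adjusted p = 0.477) and 2.56 ± 0.59 for HAT2 (0.0884). GH3.3 averaged 475.6 with IAA and 5.73 with mock in IAA7mII cells, and 841.5 with IAA and 6.4 with mock in IAA19mII cells. These mock signals are near the bottom of the scale, where the constant added to each signal understates a rise. The GH3.3 difference depends on that constant, so it does not show a weaker rise in the over-expressors. The difference was close to 0 for AT4G13180, at 0.03 (95% interval -0.59 to 0.64), and for AT1G33055, at -0.27 (-1.29 to 0.75). AT4G13180 averaged 1164 with IAA and 434 with mock in IAA7mII cells and 1825 with IAA and 765 with mock in IAA19mII cells. AT1G33055 averaged 2995 with IAA and 6085 with mock in IAA7mII cells and 2637 with IAA and 8299 with mock in IAA19mII cells. Without IAA replicate 2 the number of probesets with a called difference was 12, and without mock replicate 3 it was 15.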

How the data were processed

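The authors deposited 1 table of linear signal intensity values, 1 per probeset and array, made with MAS5 per the submitters' processing notes, which name no version. Sorted-cell RNA had been amplified (NuGEN WT-Ovation Pico) and hybridised to ATH1 arrays, per the labels' protocols. The authors' scaling was kept: trimmed means of the arrays were 247 to 248 in the empty vector groups. No columns of other samples were in the table.

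The table holds 22746 probesets. Tests covered the 16892 that exceeded the 40th percentile of an array in 3 or more arrays of the 18. Of these 9509 match a single gene, 376 several and 7007 none in the probe table, and 13436 of the 13513 single-gene probesets were found in the reference gene table. The deposited signal was turned into log2(signal + 16) and modelled in limma 3.58.1 (R 4.3.3) using 1 mean for each of 6 groups, an intensity trend and Benjamini-Hochberg adjustment over all tested probesets; a call is an adjusted p under 0.05. The spread is pooled over all groups. A probeset that is high in 1 group alone can pass the filter, so counts of raised list members may be lifted by it. A gene with several probesets was given by 1 of them, the one with the highest mean.

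All called single genes are named, the 12 largest rises and 12 largest falls without overlap with every array. From each list without a called member up to 2 genes are given as values. WRKY6 and uncalled members of lists with a called member were added after their values were seen. The members and lists were chosen with earlier results of these data known. Alternatives were other pseudocounts (1 and 64), filters, scalings, tests, array weights, a replicate block, only the 6 arrays, and leaving out each array. The label protocols say the plates stood vertically and the sample descriptions say horizontally.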

Additional observations from a re-analysis of the deposited data

Results flagged for a closer look

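For 12 genes the response to IAA differed between empty vector cells and the mean of the IAA7mII and IAA19mII cells in a test of the difference itself (limma adjusted p under 0.05 over all 16892 probesets). Among the raised genes the difference in log2 change was 4.54 for IAA29, 2.97 for AT4G37380, 2.87 for AT1G64405, 2.78 for IAA30 and 2.48 for AT3G62110. Among the lowered genes it was -1.70 for AT3G05400, -1.52 for AT3G46700, -1.39 for SFP1, -1.38 for AT5G54130, -1.35 for AT1G02360, -1.19 for AT5G05600 and -1.14 for OSM34. The plasmid backbone and the transgene cannot be told apart in these differences. The signals of IAA29 in both over-expressors, and of AT1G64405 in IAA7mII cells, were near the bottom of the scale. The sizes of these 2 differences therefore depend on the constant added to each signal.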

How the results depend on the processing

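The count of 124 probesets changed by IAA was 66 without the intensity trend, 69 with an unmoderated test, 328 with array weights and 10 with a minimum 2-fold change, and 78 to 111 on leaving out 1 array (81 without IAA replicate 2, 78 without mock replicate 2). It was 99 to 159 under the remaining settings, with 159 when only the 6 empty vector arrays were fitted. The difference of responses, 24 probesets, gave 11 with a pseudocount of 1, 39 with 64, 14 without the trend, 13 unmoderated, 51 with array weights and 5 with a minimum 2-fold change, and 12 to 27 on leaving out 1 array. The 7 lowered low-oxygen genes were 4 with a pseudocount of 1, 3 without the trend, 1 unmoderated and 0 with a minimum 2-fold change, and 2 to 6 on leaving out 1 array. Of the 57 genes, GH3.3, IAA30, IAA29 and HAT2 kept their calls under all 18 other settings, and AT1G74940 and AT4G33980 lost theirs in 10. The sign turned on leaving out 1 array in 3 uncalled genes: RR16 ranged -0.040 to 0.34, CSLA03 -0.053 to 0.69 and PRX52 -0.0745 to 0.92. Centring arrays on their medians moved the median log2 change of all tested probesets to -0.08, against 0.03, and turned the sign of none of the named genes recomputed under it. The cause of these shifts was not tested. A block for hybridisation date was not run.

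With the replicate number as a block the counts were 134 for the response, 31 for the difference and 8 for the low-oxygen list. Deviations of same-numbered arrays correlated at 0.16, 0.06 and -0.03, so the numbers were not taken as pairs, and not every array correlated best with its own number.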
